A study of Mus musculus with 10 samples.

Results

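Elk1 binding in ciNSLCs, the neural stem-like cells made from fibroblasts with a chemical medium, was compared with Elk1 binding in pri-NPC, the cells that served as the primary neural progenitor reference. The comparison rests on 2 of 10 libraries of chromatin immunoprecipitation followed by sequencing, the Elk1 library of ciNSLCs and the Elk1 library of pri-NPC, read at all 1577 loci of the deposited table. The ciNSLCs were the reprogrammed cells of a course in which fibroblasts called tdMEFs were moved from serum medium to M9 at low oxygen. M9 is a neural basal medium with N2, B27, basic FGF and the small molecules CHIR99021, LDN193189, A83-01, Hh-Ag1.5, retinoic acid, SMER28, RG108 and Parnate. The labels give no age, strain, passage or number of animals or cultures for either cell type, and the stated growth protocol describes the fibroblasts only, so how pri-NPC were derived and grown is not stated. The table also held Elk1 libraries from days 0, 4 and 8 of the course and a Gli2 library from each of the same 5 stages, which served here as reference. With 1 library a side no test was possible, and how cultures of either cell type vary among themselves was not measured. Binding at a locus is not expression, so the cell type labels could not be checked against marker genes.

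Elk1 is an ETS-family transcription factor that is phosphorylated by MAP kinases and binds a GGAA core, often beside serum response factor, which binds CArG boxes. Together they are known for driving immediate-early genes such as Fos and Egr1 within minutes of growth factor signalling, and basic FGF is a common growth factor for neural progenitor cultures. Gli2, the other factor immunoprecipitated, is a zinc finger factor of the Hedgehog pathway, and its libraries show what signal a different antibody gave at the same locus.

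The signal is the deposited value per locus and library, it is never negative, and every locus reached at least 100.1 in some library. Low signals were spaced in fixed steps, which allows a signal to be read as a number of counted units. One unit was worth 2.82 in the ciNSLC library and 14.51 in the pri-NPC library, 5.15 times as much, and reaching 100 required 36 units in ciNSLCs and 7 in pri-NPC. The ratios below are of ciNSLCs to pri-NPC as deposited. Their 95% intervals come from these units by an exact binomial method and cover counting error only, since PCR copies are not independent molecules and the subtraction of background is ignored. A count of 0 allows up to 3 units, a signal of up to 8.46 in ciNSLCs and 43.53 in pri-NPC.

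Promoter windows show what lay under the signal at genes where the Elk1 libraries gave a locus of their own. Of the loci that reached 100 with Elk1 in some library, 4 overlapped a RefSeq promoter window, which runs from 250 bases before to 50 after a gene's start, and the 3 outside the Sfi1 repeats are printed here from RefSeq on GRCm38.p6. The Map3k14 window is chr11:103267352-103267651 on the minus strand, the Sox2 window is chr3:34649745-34650044 on the plus strand, and the Olfr937 window is chr9:39060615-39060914 on the minus strand. Capitals mark CCGGAA, searched on both strands as an ETS motif, and CArG boxes with at most 1 mismatch.
Map3k14: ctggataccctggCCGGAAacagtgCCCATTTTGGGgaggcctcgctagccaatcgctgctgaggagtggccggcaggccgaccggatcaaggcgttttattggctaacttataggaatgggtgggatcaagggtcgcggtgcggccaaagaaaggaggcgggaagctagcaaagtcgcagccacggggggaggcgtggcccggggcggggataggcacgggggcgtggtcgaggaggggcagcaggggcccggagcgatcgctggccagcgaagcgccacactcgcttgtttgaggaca
Sox2: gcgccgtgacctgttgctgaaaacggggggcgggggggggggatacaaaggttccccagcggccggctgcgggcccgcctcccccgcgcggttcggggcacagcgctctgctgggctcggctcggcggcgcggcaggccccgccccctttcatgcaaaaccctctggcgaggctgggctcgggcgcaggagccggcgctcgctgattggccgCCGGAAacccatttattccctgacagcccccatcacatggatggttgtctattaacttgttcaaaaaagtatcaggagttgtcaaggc
Olfr937: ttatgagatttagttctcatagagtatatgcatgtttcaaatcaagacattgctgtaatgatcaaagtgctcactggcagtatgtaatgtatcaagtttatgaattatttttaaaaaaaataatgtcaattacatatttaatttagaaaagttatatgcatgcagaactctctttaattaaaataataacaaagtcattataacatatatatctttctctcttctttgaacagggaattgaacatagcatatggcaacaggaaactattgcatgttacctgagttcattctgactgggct

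The Map3k14 window held CCGGAA from base 14 and a CArG box with 1 mismatch in 2 overlapping registers from bases 26 and 27, all inside the Elk1 locus, which covered 207 bases of the window. The Sox2 window lay wholly inside its locus and held CCGGAA from base 213 and no CArG box. The Olfr937 window, of an olfactory receptor gene, held neither motif, with 241 bases under a locus that stood at 101.6 in pri-NPC and 4.6 in ciNSLCs. Of the 32851 mouse RefSeq promoter windows used, 14.9% held CCGGAA, 10.0% a CArG box with at most 1 mismatch and 1.3% both. These matches describe the printed letters and are not mapped binding sites.

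Among loci that Elk1 and not Gli2 brought into the table, those beside Fos, Junb and Egr1 were near the top in both cell types, while that of Egr3, of the same gene list, was not. The Fos locus (chr12:85485865-85486385), beside the gene of an AP-1 subunit, lay 8591 bp from the gene and 11926 bp from its nearest promoter window. It gave an Elk1 signal of 135.5 in ciNSLCs and 249.6 in pri-NPC. It ranked first in each library among the 1481 loci that did not reach 100 with both antibodies. The ratio was 0.543 (interval 0.31 to 1.02), which does not leave out 1. Gli2 signal there was 9.0 in ciNSLCs and 1.3 in pri-NPC, and Elk1 signal at days 0, 4 and 8 was 37.8, 222.8 and 167.6. As deposited, Elk1 thus stood above its day 0 level and far above Gli2 in both cell types. The day 0 library was neither scaled to the others nor given a counting interval, so the rise over day 0 was not tested.

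The Junb locus (chr8:84976465-84976845), beside the gene of an AP-1 partner of Fos, lay 64 bp from the gene and 1854 bp from its nearest promoter window. The locus gave 97.7 in ciNSLCs and 129.4 in pri-NPC, a ratio of 0.755 (interval 0.356 to 1.79). It ranked 3 in ciNSLCs and 20 in pri-NPC, and Gli2 gave 9.0 and 7.2. Beside Egr1 (chr18:34860505-34861165, 42 bp away), the gene of a zinc finger factor induced by growth factors, Elk1 gave 80.8 and 148.0, a ratio of 0.546 (interval 0.267 to 1.3), and the locus ranked 6 in both. Gli2 signal at the Egr1 locus was 10.6 in ciNSLCs and 23.5 in pri-NPC. Each of these signals was higher in pri-NPC as deposited, and each interval spans 1 and reaches below 0.5, so neither equal binding nor a difference of 2-fold can be told from counting error.

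Map3k14 encodes NIK, the kinase of the noncanonical NF-kappaB pathway. Its locus (chr11:103267445-103267805, 44 bp from the gene and over the promoter printed above) gave 52.2 in ciNSLCs and 99.3 in pri-NPC, a ratio of 0.526 (interval 0.212 to 1.48). Gli2 was 0 in ciNSLCs and 24.8 in pri-NPC, and Elk1 at days 0, 4 and 8 was 27.5, 164.7 and 81.2. The pri-NPC signal is the highest in that library just under 100. The locus ranked 21 in ciNSLCs and 685 in pri-NPC, behind the 677 loci listed through Elk1 pri-NPC alone.

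The direction at these genes depends on the scaling between the libraries. Scaling ciNSLCs up 4.67-fold, to the same median over all loci, turned the ratio to 2.53 at Fos, 2.55 at Egr1, 3.52 at Junb and 2.45 at Map3k14. The intervals then were 1.45 to 4.75 at Fos, 1.25 to 6.05 at Egr1 and 1.66 to 8.34 at Junb, higher in ciNSLCs beyond counting error, and 0.991 to 6.93 at Map3k14. Scaling up 1.71-fold, to the same median over loci listed through at least 1 of the other 8 libraries, gave 0.926 at Fos, 0.931 at Egr1, 1.29 at Junb and 0.897 at Map3k14, each with an interval that spans 1. The median over all loci is itself raised in pri-NPC by loci listed through that library alone, described below. What the files show without a choice of scale is that the Fos, Junb and Egr1 loci were among the highest Elk1 signals of either cell type outside loci shared with Gli2. In pri-NPC, Junb and Egr1 rest on 9 and 10 units. They lie within the range of the loci listed through that library alone, 100.4 to 158.5, and Fos, at 249.6, lies above it. Whether the pri-NPC ranks of Junb and Egr1 stand apart from those loci beyond counting error was not tested.

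**Figure D1:**
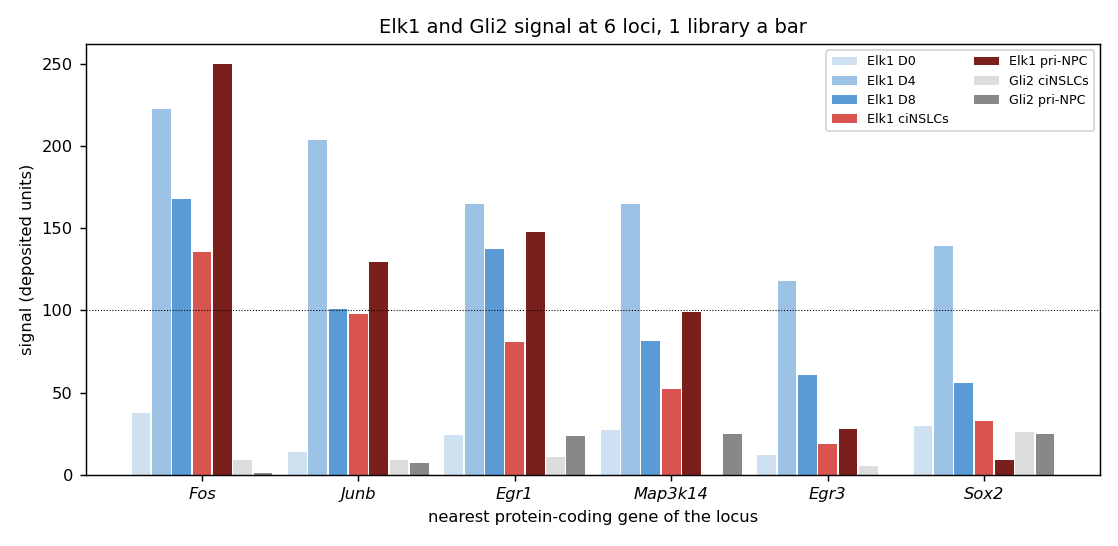
Signal (deposited units) at the loci near Fos, Junb, Egr1, Map3k14, Egr3 and Sox2 in the 5 Elk1 libraries and in the Gli2 libraries of ciNSLCs and pri-NPC, 1 library a bar, with a dotted line at 100. At Fos, Junb, Egr1 and Map3k14 both the ciNSLC and the pri-NPC Elk1 bars stand above the Gli2 bars, and at Sox2 the pri-NPC Elk1 bar, at 9.3, is the lowest of the 7; the order of ciNSLCs and pri-NPC at the first 4 flips when each library is scaled to the same median over all loci.

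Of 33 immediate-early and serum response genes in the list used, 5 had a locus, and with 1 added to each signal Elk1 differed 2-fold at none, against 186 higher (19.3%) and 501 lower (52.0%) of the 964 loci assigned to a gene. Scaled to the same median over all loci, 4 of the 5 had ratios of 2.53 to 3.52. Egr3 (chr14:70074785-70075065, 2252 bp away), a relative of Egr1, gave 18.7 and 27.9 (ratio 0.67, interval 0.13 to 6.71). Fosb, another AP-1 subunit, gave 1.8 and 4.1 at a locus listed through Gli2, where Gli2 signal was 298.4 and 207.3. Without the added 1 the Fosb ratio was 0.439, with a lower bound of 0.00498 and no upper bound. The median log2 difference over these 5 loci was -0.87, against -1.15 over all 964 loci assigned to a gene and -0.33 over the 693 of them outside pri-NPC alone, where all 5 belong. Of those 693, 186 were higher (26.8%) and 230 lower (33.2%), with 38 lower beyond counting error (5.48%).

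At the Sox2 locus (chr3:34649325-34650265, over the gene), which belongs to a transcription factor that keeps neural progenitors in their state, Elk1 gave 32.8 in ciNSLCs and 9.3 in pri-NPC. The ratio of 3.53 has an interval of 0.345 to 99.7, because the pri-NPC signal amounts to 1 unit. Scaled to the same median over all loci it was 16.5 (interval 1.61 to 465), higher in ciNSLCs beyond counting error. Scaled over loci listed elsewhere it was 6.02 (interval 0.589 to 170). Gli2 signal was alike in both, 26.3 and 24.8. Elk1 signal at Sox2 was 139.1 at day 4, so the locus entered the table through that library, and neither end-stage library came near it.

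How many Elk1 loci differed overall turned on a single group of loci. As deposited, Elk1 was at least 2-fold lower in ciNSLCs at 999 of 1577 loci (63.3% of loci called) and at least 2-fold higher at 228 (14.5%), on log2 of the signal plus 1. Beyond counting error, meaning that the interval also left out 1, it was lower at 747 (47.4%) and higher at 2 (0.127%). Of the 747, 673 lay among the 677 loci at which Elk1 pri-NPC and no other library reached 100, where 676 (99.9%) were 2-fold lower in ciNSLCs and 673 (99.4%) beyond counting error. Leaving those 677 loci out, 323 of 900 loci were 2-fold lower (35.9%) and 228 higher (25.3%), and beyond counting error 74 were lower (8.22%) and 2 higher (0.222%). Over the 899 loci that 1 of the other 8 libraries had listed, the counts were 323 (35.9%) and 227 (25.3%), and 74 (8.23%) and 1 (0.111%). The median signal then was 8.5 in ciNSLCs and 14.5 in pri-NPC, where it had been 10.2 and 47.6 over all loci. With both scaled to the same median over loci listed elsewhere, 17 of the 900 were higher and 47 lower beyond counting error. Scaled over all loci, 114 were higher and 18 lower, so the direction turns with the scaling.

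**Figure D2:**
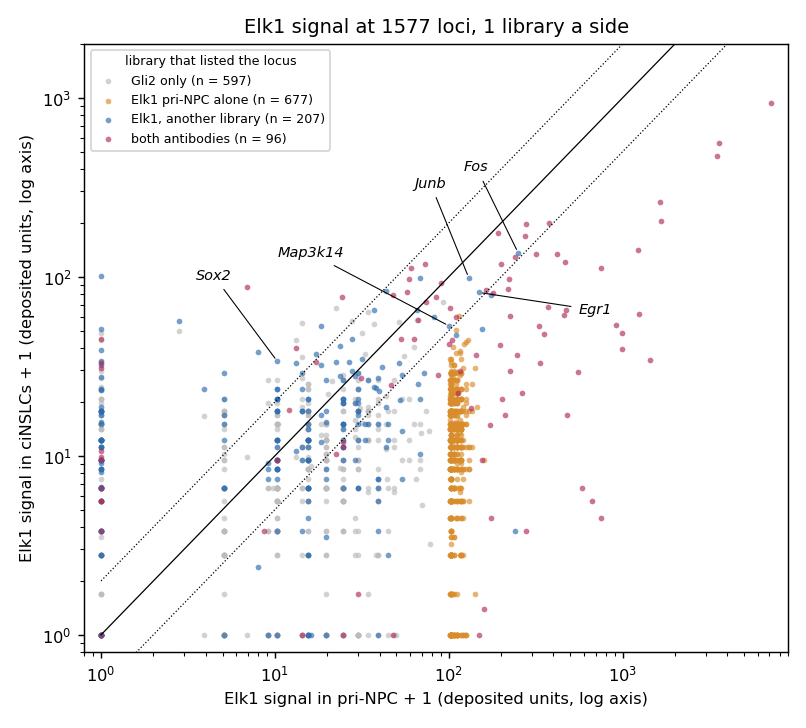
Elk1 signal plus 1 in pri-NPC (x axis) and ciNSLCs (y axis) at 1577 loci, both axes logarithmic and in deposited units, coloured by the libraries in which the locus reached 100, with a solid line at equal signal and dotted lines at 2-fold. The 677 loci of Elk1 pri-NPC alone form an upright band from 100.4 to 158.5 in pri-NPC, and the loci of Fos, Junb, Egr1 and Map3k14 lie between the solid and the lower dotted line.

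The 677 loci of pri-NPC alone were chosen by the pri-NPC signal, so their excess in pri-NPC is a description and supports nothing. Their pri-NPC signal lay between 100.4 and 158.5, and at 635 (93.8%) it was under 120. At 299 loci it was exactly 101.6, the value of 7 units with no background taken off, and at 294 more it decoded to 8 units. The highest pri-NPC signal below 100 in the table was 99.3, and only 28 loci stood between 60 and 100. In ciNSLCs the same loci had a median of 11.3, or 4 units, with 45 at 0 and the highest at 59.3. That level is close to the other Elk1 libraries, with medians of 10.3, 11.4 and 9.3 at days 0, 4 and 8, and to Gli2, with 13.6 in ciNSLCs and 18.3 in pri-NPC.

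**Figure D3:**
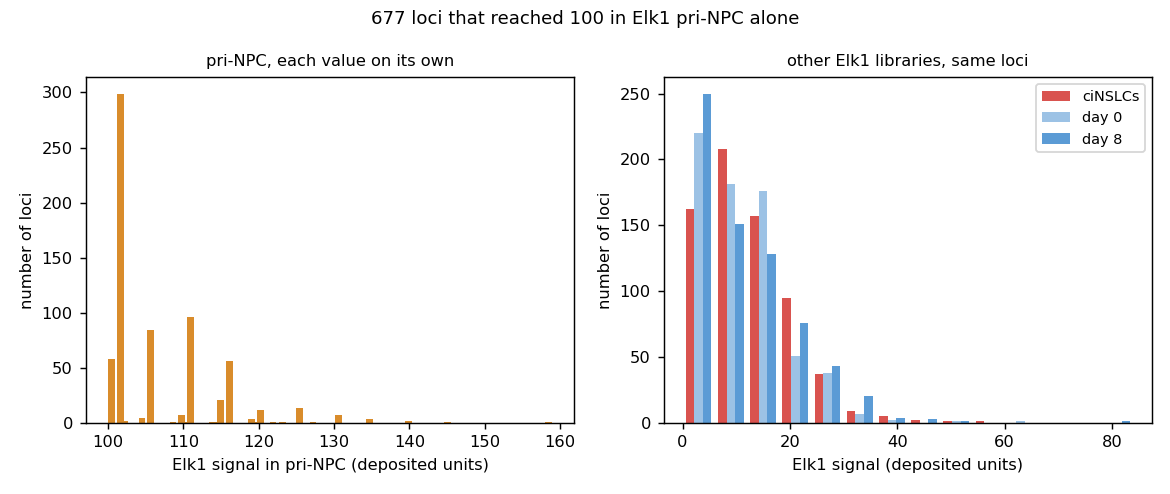
Number of loci by Elk1 signal (deposited units) at the 677 loci listed through Elk1 pri-NPC alone, with pri-NPC on the left and ciNSLCs, day 0 and day 8 on the right. The pri-NPC signals stack on few values, 299 loci at 101.6 and 96 at 110.9, and the other 3 libraries overlap one another at low signal.

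These loci also differed from the rest in where they lay, which the rule did not use. Of the 677, 26.4% overlapped a protein-coding gene and 40.0% had one within 50 kb, against 33.6% and 77.0% of the other 900 loci. Loci that reached 100 in Elk1 day 4 alone (190 loci) stood at 38.9% and 67.4%, and those of Gli2 day 0 alone (357 loci) at 37.0% and 74.2%. A promoter window was overlapped by 1 of the 677 and by 46 of the other 900, of which 43 were loci of Gli2 only. Loci on chromosome 18 had no window to overlap and count here as not overlapping. Few promoters were overlapped in the other single-library groups too, 2 of 190 for Elk1 day 4 and 6 of 357 for Gli2 day 0. Of the 271 assigned to a gene, 30 (11.1%) were nearest to an olfactory or vomeronasal receptor gene, against 20 of 693 (2.9%) elsewhere, and these gene families sit in large gene-poor arrays. On chromosome X lay 1 of the 677 (0.148%) and 21 of the 900 (2.33%). The sources do not give the sex of the cells, and its part in the X count was not tested.

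Examples show how thin each one is. The highest, over Gfod2, gave 8.5 in ciNSLCs and 158.5 in pri-NPC, where Gli2 also gave 90.6. Dusp8, the gene of a MAP kinase phosphatase, had a locus 4278 bp away with 14.1 and 101.6. Loci within Dach1, a transcriptional regulator of the neural progenitor list, gave 14.1 and 116.1 at one and 19.8 and 100.4 at another. A locus within Fap, a fibroblast surface protease, gave 1.8 and 101.6. A locus within Cntnap2, a neuronal adhesion protein, gave 14.1 and 110.9. Progenitor, neuronal and fibroblast genes thus all had such loci, at signals of 7 or 8 units.

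The lists of loci at 100 were of very unequal length. Elk1 reached 100 at 20 loci in ciNSLCs and at 741 in pri-NPC, and 17 were shared, which is 85.0% of the ciNSLC list and 2.3% of the pri-NPC list. Of the 741, 677 (91.4%) reached 100 in no other library. Of the 17 shared loci, 16 reached 100 with Gli2 in some library as well, and the remaining one is Fos. At equal list size, the 100 highest loci of each library shared 41 over all loci and 62 without the loci of pri-NPC alone. The ciNSLC list shared 57, 56 and 67 of 100 with Elk1 at days 0, 4 and 8 over those 900 loci, and the pri-NPC list shared 39, 58 and 60. By this count ciNSLCs shared more with pri-NPC, 62, than with days 0 and 4 and less than with day 8. Other settings gave another order. Over all loci the ciNSLC list shared 53, 53 and 63 with days 0, 4 and 8, against 41 with pri-NPC. Over the 900, the 200 highest shared 115, 106 and 126, against 103, and the 50 highest 21, 32 and 35, against 27. Without the loci of both antibodies as well, the 100 highest shared 54, 35 and 52, against 33. The differences between these counts have no error estimate, and the unequal listing of loci through single libraries enters them.

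Rank correlation across the same 900 loci gave rho of 0.37 between ciNSLCs and pri-NPC, and 0.28 over all 1577. Between ciNSLCs and Elk1 at days 0, 4 and 8 it was 0.45, 0.42 and 0.42 over the 900 loci and 0.31, 0.24 and 0.27 over all 1577, and between pri-NPC and those days 0.25, 0.32 and 0.32 over the 900 and -0.01, -0.08 and 0.07 over all. Between Elk1 and Gli2 of the same cells it was -0.01 in ciNSLCs and 0.14 in pri-NPC over the 900. Without the loci of both antibodies, the 804 that remained gave 0.27 for ciNSLCs and pri-NPC, 0.39, 0.34 and 0.32 for ciNSLCs and days 0, 4 and 8, and 0.17, 0.18 and 0.18 for pri-NPC and those days. These are descriptions over loci, which are not replicates, and coarse pri-NPC units with many ties enter each pri-NPC value. Without the loci of pri-NPC alone, Elk1 in ciNSLCs ranked loci more like the days of the course than like pri-NPC, but over all loci pri-NPC stood between day 0 and the later days. The pri-NPC library ranked loci more like ciNSLCs than like any of those days in all 3 sets of loci. The listing of loci enters each of these orders, because it was unequal between libraries. Elk1 day 4 alone brought 190 loci into the table and Elk1 ciNSLCs alone brought 1, and all 3 sets keep them. How far this listing sets the order of the correlations was not tested.

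Precision at single loci was low. Without the loci of pri-NPC alone, the interval held 1 at 755 of 900 loci, and at 665 (73.9%) it held both 0.5 and 2 as well, so that these loci cannot tell likeness from a 2-fold difference either way. At 597 loci the pri-NPC signal amounted to 1 unit or 0. Over the whole table a single locus, in Sfi1 (chr11:3180645-3186305), had an interval wholly between 0.5 and 2. It gave 174.9 and 191.2, a ratio of 0.915 (interval 0.504 to 1.84).

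A second way to ask where Elk1 bound in both cell types was to set Elk1 against Gli2 in the same cells, a choice made after the values were seen. Without the loci of pri-NPC alone, Elk1 was at least 2-fold above Gli2 beyond counting error at 27 of 900 loci in ciNSLCs (3.00%) and at 31 in pri-NPC (3.44%), with 6 in both (0.667%). Those 6 were the Fos, Junb, Egr1 and Map3k14 loci and a pair with no gene within 50 kb. Of that pair, chr12:115372125-115372505 gave Elk1 signals of 97.7 in ciNSLCs and 67.3 in pri-NPC (ratio 1.45, interval 0.531 to 4.45) with Gli2 at 6.0 and 0. The other, chr13:3372905-3373465, gave 52.3 and 331.1 (ratio 0.158, interval 0.0827 to 0.308) with Gli2 at 15.6 and 113.4, and had reached 100 with both antibodies. The 6 thus include the 4 gene loci described first, and their low Gli2 signal relative to Elk1 is what chose them. These calls used deposited values, with no scaling between the antibodies. In pri-NPC the Elk1 and Gli2 medians were 14.5 and 24.1 over the 900 loci and 47.6 and 19.6 over all 1577. In ciNSLCs they were 8.5 and 18.0, and 10.2 and 15.0. How scaling between the antibodies changes the calls was not tested.

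Over all 1577 loci the counts were 33 in ciNSLCs (2.09%), 573 in pri-NPC (36.3%) and 11 in both (0.698%), and the 5 added were loci of pri-NPC alone. The one at a gene was over Mpdu1 (chr11:69662165-69662465), which acts in the sugar donor pathway of protein glycosylation. It gave 36.7 in ciNSLCs and 114.9 in pri-NPC (ratio 0.319, interval 0.121 to 0.879), with Gli2 at 9.0 and 7.8 and Elk1 at 50.2 and 44.9 at days 4 and 8. Among the loci of pri-NPC alone it is one with Elk1 above Gli2 in the ciNSLC library too. A locus 38626 bp from Cd200, the gene of a membrane glycoprotein, gave 18.7 and 110.9, with Gli2 at 0 and 24.1.

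Outside pri-NPC alone, the loci that reached 100 with both antibodies held 47 of the 74 that were lower in ciNSLCs beyond counting error, though 57 of the 323 that were 2-fold lower. Of these 96 loci, Elk1 was 2-fold lower in ciNSLCs at 57 (59.4%) and higher at 13 (13.5%), with 47 lower (49.0%) and 1 higher (1.04%) beyond counting error. Median Elk1 signal was 39.65 in ciNSLCs and 151.3 in pri-NPC. Gli2 was also 2-fold lower in ciNSLCs, at 62 of 96, against 471 of all 1577 (29.9%), and its medians were 32.5 and 116.65. At the 47 lower loci the median log2 difference was -2.93 for Elk1 and -2.65 for Gli2. The fit took one background step for both antibodies of a cell type, with a value of 6.68 in ciNSLCs and of 5.22 in pri-NPC. That the step is shared was thus assumed and not tested. If the same background was taken off both, the values of Elk1 and Gli2 are not independent of each other. An antibody-specific difference in Elk1 binding cannot be told apart here from a difference between the chromatin or libraries of the cell types.

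At 9 such loci that reached 100 in both Elk1 libraries outside Sfi1, pri-NPC exceeded ciNSLCs 3.13- to 8.78-fold with Elk1 (median 6.79) and 3.36- to 7.31-fold with Gli2 (median 4.01). The highest of them, chr2:98666085-98667465, with no gene within 50 kb, gave Elk1 signals of 935.9 and 7140 and Gli2 signals of 779.4 and 4586.8. Near Rpusd4, a pseudouridine synthase gene (chr9:35305065-35305665, 29108 bp away), Elk1 gave 559.4 and 3571.7 and Gli2 318.6 and 2330.4. At the 7 loci of Sfi1, the gene of a centrosomal protein that lies in a duplicated stretch of chromosome 11, pri-NPC exceeded ciNSLCs 1.09- to 2.37-fold with Elk1 (median 1.69) and 1.28- to 1.96-fold with Gli2 (median 1.5). Reads from near-identical copies may be split or stacked at such places, so the values are uncertain. The 2 groups of loci therefore gave different ratios of the cell types, and within each group the ranges of Elk1 and Gli2 overlapped. No repeat annotation was used, so whether the 9 loci outside Sfi1 lie in repeats was not tested.

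**Figure D4:**
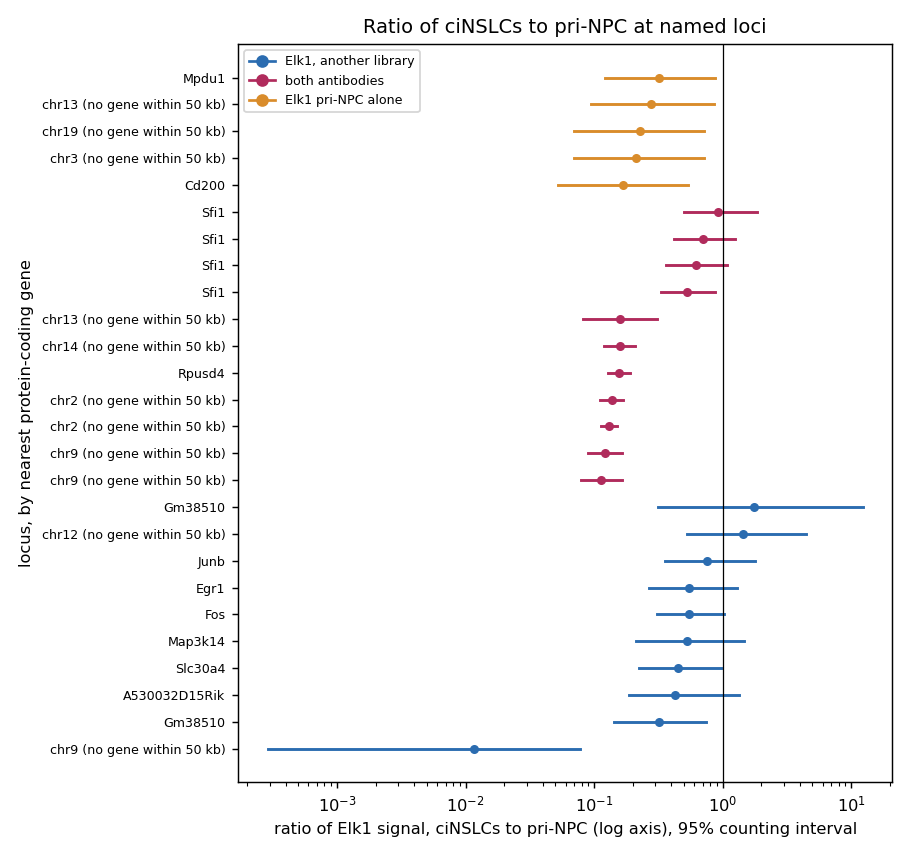
Ratio of Elk1 signal of ciNSLCs to pri-NPC (log axis) with its 95% counting interval at 26 loci: those highest in both libraries, those at 100 with Elk1 in at least 2 libraries and never with Gli2, and those with Elk1 above Gli2 in both cells; a locus with no upper bound is not drawn. The intervals at Fos, Junb, Egr1 and Map3k14 hold 1, the 7 other loci of both antibodies have intervals that end at or below 0.308, and the Sfi1 loci, from 0.528 to 0.915, overlap the range of those 4 genes; all would move right by 4.67- or 1.71-fold under the median scalings.

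Among loci of both antibodies, the named ones with the largest excess in pri-NPC were also higher there with Gli2. In Chl1, the gene of an L1-family adhesion molecule of neurons (chr6:103648905-103649405), Elk1 gave 3.5 in ciNSLCs and 749.7 in pri-NPC (ratio 0.00467, interval 9.29e-05 to 0.0218), and Gli2 gave 16.6 and 413.1. In Aida, which encodes an axin-interacting protein (chr1:183298985-183299745), Elk1 gave 4.6 and 665.0 and Gli2 0 and 261.5. A locus 35101 bp from Pak3, a neuronal p21-activated kinase (chrX:143482865-143483265), gave Elk1 5.6 and 581.9 and Gli2 15.0 and 322.5. These 3 loci stood high with both antibodies in pri-NPC and near the floor with Elk1 in ciNSLCs.

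The other named loci that were lower in ciNSLCs rested on few units. Elk1 was 0 in ciNSLCs at a second Slc30a4 locus (123.1 in pri-NPC), near Elobl (119.6), in Trmt9b (116.1) and in Cr2, a complement receptor gene (110.9), and all 4 were loci of pri-NPC alone. Outside that group it was 0 near Ndufb3, a subunit gene of respiratory complex I (48.9), in Dcc, the netrin receptor (47.6), and at Tmem267 (46.5). A count of 0 allows a ciNSLC signal of up to 8.46 at each of these 7. At the first Slc30a4 locus, a zinc transporter gene (chr2:122681225-122681585), Elk1 gave 78.4 and 174.8 (ratio 0.449, interval 0.223 to 0.979), with Gli2 at 69.4 and 89.3.

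As deposited, 2 of the 228 loci that were 2-fold higher in ciNSLCs were so beyond counting error, against 115 when scaled to the same median over all loci. Both lay in clusters of loci on chromosome 1, and clusters held 8.1% of all loci. A locus in the predicted gene Gm38510 (chr1:85261925-85262145) gave 100.2 in ciNSLCs and 0 in pri-NPC, where 0 allows up to 43.53, and Gli2 was in the same order, 73.8 and 13.0. It is the one locus that reached 100 in Elk1 ciNSLCs alone, so its ciNSLC signal brought it into the table. The other, in Sp110, which encodes a nuclear body protein (chr1:85591305-85591725), gave 86.2 and 5.9 (ratio 14.6, lower bound 1.54), with Gli2 at 23.0 and 58.0 in the opposite order. Elk1 at Sp110 was also 99.3, 169.9 and 80.7 at days 0, 4 and 8. The pri-NPC library thus stood apart from the other 4 Elk1 libraries there.

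Loci were therefore grouped into clusters of at least 5 with gaps of at most 50 kb, a grouping made after the values were seen, which gave 9 clusters and 128 loci. In the cluster over Ugt1a10, Mroh2a, Hjurp and Trpm8 (31 loci, chr1:88213285-88307305), Elk1 was 2-fold higher in ciNSLCs at 13 and lower at 3, none beyond counting error, against 14.5% higher over all loci, with medians of 32.5 and 17.4. Gli2 was higher at 11 and lower at 7, with medians of 24.2 and 24.8, and the median log2 difference was 0.57 for Elk1 and 0.43 for Gli2. The clusters at Sp110 and Sp140 (10 loci, medians 31.25 and 25.85) and at Gm38510 and Gm7592 (19 loci, 36.0 and 26.7) had 3 against 2 and 5 against 5 loci higher and lower. In the Sfi1 cluster (21 loci) the medians were 95.8 and 83.7, with 2 higher and 6 lower, 0 and 5 of them beyond counting error. The median log2 difference in the Sfi1 cluster was -0.65 for Elk1 and -0.73 for Gli2. At the start of chromosome 9 (19 loci, chr9:2999865-3038365) Elk1 was lower in ciNSLCs at 18, with medians of 46.9 and 350.1, and Gli2 was also lower at 18, with 36.0 and 168.8.

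**Figure D5:**
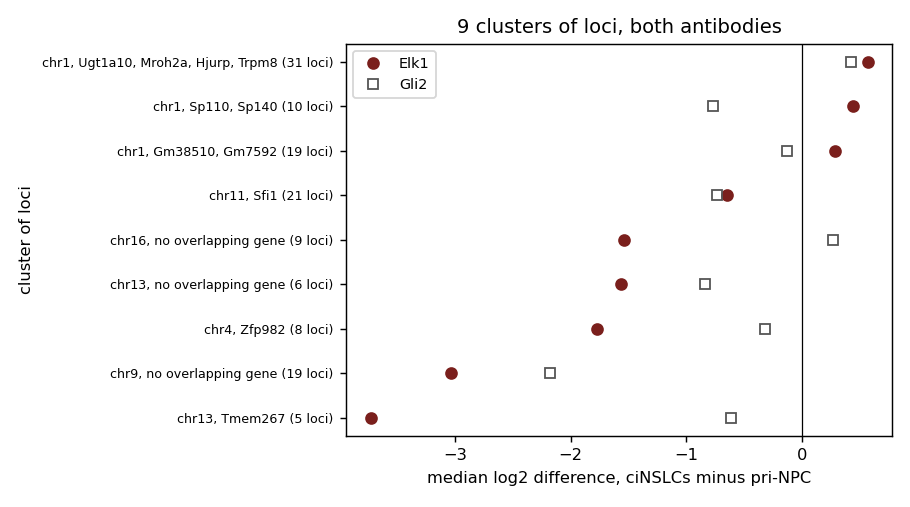
Median log2 difference of ciNSLCs minus pri-NPC over the loci of each of 9 clusters, for Elk1 (filled circles) and Gli2 (open squares), with a line at 0. Elk1 lies above 0 in the 3 clusters of chromosome 1 and below 0 in the other 6, where the chromosome 9 cluster is lower with both antibodies; adding the scaling shift of 0.77 or 2.22 moves the Elk1 points right.

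Elk1 signal in pri-NPC helped sort the loci into 4 classes, so ranking the classes by difference from pri-NPC partly restates the sorting. Within that limit, loci listed through Elk1 but not Gli2, and not through pri-NPC alone, had the median difference nearest 0 of the 4. Of these 207 loci, 61 were 2-fold higher in ciNSLCs (29.5%) and 55 lower (26.6%), with 1 and 8 beyond counting error (0.483% and 3.86%). Median signal was 13.1 in ciNSLCs and 14.5 in pri-NPC, and the median log2 difference was -0.13. At the 597 loci listed through Gli2 only, Elk1 medians were 5.6 and 9.3, with 154 higher (25.8%) and 211 lower (35.3%), and 0 and 19 beyond counting error (0% and 3.18%). Among the 207, a locus in Tcf7l1, a transcription factor of the Wnt pathway, was named after its values were seen, with Elk1 at 0 and 38.3. That is lower in ciNSLCs beyond counting error, but rests on 3 units in pri-NPC.

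Other gene lists held few loci. Neural progenitor genes had 7 loci at 6 of 29 genes, 2 higher and 3 lower in ciNSLCs, against 19.3% and 52.0% of the 964 assigned loci. Beyond counting error 2 were lower, against 32.0% of the 964. Both are in Dach1 and are loci of pri-NPC alone, chosen by their pri-NPC signal. Up to 6 loci a list were named, so not all 7 are given here. Beside Dach1 and Sox2 those named were Slc1a3, the glutamate transporter GLAST (11.3 and 14.5), Pax6 (0 and 9.3) and Msi2, an RNA-binding protein of stem cells (4.6 and 0). The last pair lie within what a count of 0 allows in pri-NPC. Fibroblast genes had 3 loci, with Zeb2 at 8.5 and 0 and Thbs1 at 4.6 and 0 beside Fap. Neuronal genes had 3, with a second Cntnap2 locus at 16.9 and 9.3.

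Among regulators of the pathway itself, Spry4, an inhibitor of receptor tyrosine kinase signalling, gave 14.1 and 18.6. The ETS factor gene Elf1 also gave 14.1 and 18.6, and the loci near Elf2 gave 0 and 18.6 and 2.8 and 0. Tpm2, a tropomyosin gene of the serum response factor targets, gave 1.8 and 38.3, Smo, the Hedgehog signal transducer, 4.6 and 0, and the replication gene Mcm3 1.8 and 4.1. The lists of glial, of microglial and endothelial, of Wnt, BMP, TGF-beta and retinoid genes and of chromatin regulators had 0 loci in the table. These lists hold chosen genes only, and Tcf7l1, named above, is not on the Wnt list. Solute carriers (13 loci) had a median log2 difference of -2.36 over all loci and -1.22 without those of pri-NPC alone, receptors of smell (50 loci) -2.66 and -1.14, translation genes (6 loci) -2.99 and -2.93, and zinc finger genes (40 loci) -0.82 and -0.71. The same over all assigned loci was -1.15, and -0.33 without the loci of pri-NPC alone. The translation list rests on 5 loci there, with 1 lower beyond counting error.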

How the data were processed

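Chromatin from 5 stages was immunoprecipitated with 2 antibodies, 1 library each, per the labels. The submitters' processing notes name CASAVA 1.8.4, FastQC, Bowtie2, SAMtools and mm10 without roles; peak caller, signal measure, background and scaling are not given in those sources. A single table of signal values at 1577 loci was deposited, and all 10 columns were matched by name. The series text sets ciNSLC next to day 0, but sample labels keep them apart and were followed.

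For each library a unit and, per stage, a background step were fitted to the signals under 60. Within 0.06, 87.2% of these in the ciNSLC library of Elk1 and 85.1% in that of pri-NPC lay on the grid. That signals are scaled counts less a scaled background is inferred from this grid. Total depth is unknown. The fit was tested on simulated data. Differences are on a log2 scale with 1 added to each signal, which shrinks those of low signals, and a locus counts as different from 2-fold on.

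Loci were assigned to the nearest RefSeq protein-coding gene within 50 kb (GRCm38.p6, the build of mm10). The annotation used here holds gene bounds only, with no exons or UTRs. Whether the deposited coordinates count from 0 or 1 is not stated. Named loci are list members with a locus, up to 6 a list by the higher signal. They also include the 6 largest and 6 smallest ratios beyond counting error over all loci and over loci listed elsewhere. Up to 10 highest in both libraries and the most alike were added, and others were chosen after their values were seen. The comparison and gene lists were chosen with earlier results of these data known. Alternatives covered scaling, pseudocount, filter, limits, loci compared and gene distance. Tables were handled with pandas 2.3.3 and numpy 2.4.6 in Python 3.11.15, intervals with scipy 1.17.1, and plots with matplotlib 3.10.9.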

Additional observations from a re-analysis of the deposited data

How the results depend on the processing

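No paired analysis was possible because each cell type had 1 Elk1 library, so leaving out a library was not possible either. Scaling both libraries to the same median over all loci gave 542 loci 2-fold higher and 443 lower in ciNSLCs, and 115 and 90 beyond counting error; scaling over loci listed elsewhere gave 17 higher beyond counting error. A filter at the 25th percentile left 51 higher. Loci outside pri-NPC alone gave 323 lower, 74 beyond counting error, and loci listed in a library other than the pair gave the same 323 and 74, with 1 higher beyond counting error. A limit of 150 left 9 loci in ciNSLCs, 53 in pri-NPC and 9 in both, a limit of 200 left 5, 41 and 5, and a limit of 50 in ciNSLCs alone gave 62 there and 34 in both. Without loci of both antibodies, 2 ciNSLC loci reached 100, 1 of them shared. The highest 50 and 200 loci shared 54% and 29%, the highest 100 shared 62% without loci of pri-NPC alone and 12% without loci of both antibodies. Median scaling over all loci moved the median log2 difference of immediate-early genes to 1.34, translation to -0.98, solute carriers to -0.93, zinc finger genes to 1.34 and receptors of smell to -0.64, and reversed that of all assigned loci from -1.15 to 0.61. Without the loci of pri-NPC alone, it was -1.22 for solute carriers, -1.14 for receptors and -0.33 for all assigned loci. Assignment within 5 kb gave -1.78 for zinc finger genes. Of the values recomputed, 38 stayed close to those reported and 47 did not. Scaling sets direction here, and no value of the files fixes it. The coarse unit of pri-NPC, 14.51, limits every ratio, and the listing of loci at 100 is not part of any interval.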

Other observations

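Loci on the sex chromosomes were read after the values were seen. The 22 loci on chromosome X had Elk1 medians of 8.5 in ciNSLCs and 0 in pri-NPC, with 13 at 0 in pri-NPC and 2 in ciNSLCs. Of all 1577 loci, 237 were at 0 in pri-NPC and 166 in ciNSLCs. Loci of pri-NPC alone cannot be at 0 in pri-NPC, and 21 of the 22 lay outside that group. Of the 900 loci outside it, 237 were at 0 in pri-NPC and 121 in ciNSLCs. A pri-NPC count of 0 allows up to 43.53. The Gli2 medians there were 12 and 17.6. The loci near Pak3 (5.6 and 581.9) and in Cldn34d (15.9 and 475.1), both at 100 with both antibodies, were the other way round. Of 3 loci on chromosome Y, with no unique gene assigned here, Elk1 gave 17.4, 19.8 and 2.2 in ciNSLCs and 132.4, 200.5 and 77.3 in pri-NPC, and Gli2 gave 8.3, 20.5 and 13.8 and 116.7, 346.1 and 156.4. Signal of either antibody on chromosome Y was thus higher in the pri-NPC libraries at all 3 loci. On the mitochondrial chromosome, the COX3 locus was at 0 in Elk1 and Gli2 of both cell types.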
